A study of Mus musculus with 19 samples.

Results

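Messenger RNA of 3 FOXO transcription factors and 7 genes known as their targets was followed in mouse hearts after birth, with and without a conditional knockout (cKO) of PDK1. The set held Foxo1, Foxo3, Foxo4, Fbxo32, Trim63, Gabarapl1, Sesn1, Cited2, Ccng2 and Pik3ip1. Its genes were taken by symbol, 10 of the 56066 genes in the table; the rule used no values, but the set was chosen with earlier results of these data known. Hearts were sampled at postnatal days 1, 7 and 21 (P1, P7 and P21), per the sample labels; the series' design text gives P0 for the first age. The groups were 3 wild-type (WT) libraries at P1, 3 PDK1 cKO and 5 WT libraries at P7, and 3 PDK1 cKO and 4 WT libraries at P21. The labels gave genotype, age and tissue (heart), with no field for strain and no sex, Cre driver or floxed allele, and they left unnamed the gene behind PDK1, which could be Pdpk1 or Pdk1. Nothing in them ties each library to its own animal. The p-values therefore measure the spread between libraries, which may be technical.

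FOXO factors are forkhead transcription factors downstream of insulin and growth factor signalling. In that pathway PI3K makes a membrane lipid that brings AKT together with the Pdpk1 kinase, which activates it, and active AKT phosphorylates FOXO proteins so that they leave the nucleus. Their activity is thus set largely at the protein level, which messenger RNA does not show. In striated muscle, FOXO factors are known to raise the genes of a programme of muscle wasting that includes the ubiquitin ligase genes Fbxo32 (atrogin-1) and Trim63 (MuRF1) and genes of autophagy.

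Levels were TPM, a unit scaled for gene length and to a fixed sum per library, so levels of different genes can be compared, while sequencing depth is unknown. The number of genes at 1 TPM or more was 12422 in the sparsest library and 13797 in the richest. All 10 cardiomyocyte markers were above 0 in every library, with a summed level of 58580 to 74680 TPM in the grouped libraries. Library 63 (P21) was kept out of the groups, because its genotype was given as cKO while its title lacked the KO that marks every other cKO title. WT titles came in 2 styles, a letter code (all P1, 2 P7 and 2 P21 libraries) and a plain number (3 P7 and 2 P21 libraries, and all cKO libraries), and the model had a term for this. The letter code itself differed with age: H in P1 titles, heart in 2 P7 titles and B6 in 2 P21 titles. The model's term treats these codes as 1 style, and P1 has no plain-number library. A difference between P1 and P7 therefore cannot be told apart from one between the codes H and heart. The labels do not explain B6. A difference of strain or colony between the 2 B6 libraries and the other P21 WT libraries cannot be told apart from title style. The fits held to plain-number titles leave these 2 libraries out. Among these genes P21 WT 60 stood apart: it was the highest P21 WT library for 9 of the 10, with a median deviation from the group mean of 0.29 on the log2 scale, against 0.09 over all genes. P7 WT 3 was the highest P7 WT library for 8 of the 10, with a median deviation of 0.35, against 0.04 over all genes.

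Promoter sequence in RefSeq (GRCm38.p6, the build of the files), 250 bases before to 50 after a start site, was at hand for 8 of the 10 genes, as 9 windows. The windows were searched on both strands for GTAAACA and ATAAACA, forms of the core that forkhead proteins bind. Of all 32851 promoter windows, 3.65% held GTAAACA, 4.6% held ATAAACA and 7.97% held either. Those of Trim63, Gabarapl1 and Sesn1 held 1 match each, and they are shown for that reason. The windows of Foxo1, Foxo3, Cited2, Ccng2 and Pik3ip1 held none. Capitals mark the match, in the strand of the gene; TGTTTAC is GTAAACA read on the other strand.
Trim63: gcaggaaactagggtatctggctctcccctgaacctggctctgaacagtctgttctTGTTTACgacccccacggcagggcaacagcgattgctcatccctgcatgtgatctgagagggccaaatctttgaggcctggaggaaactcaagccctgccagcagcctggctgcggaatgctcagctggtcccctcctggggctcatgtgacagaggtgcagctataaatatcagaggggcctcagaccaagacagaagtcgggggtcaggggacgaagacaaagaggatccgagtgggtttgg
Gabarapl1: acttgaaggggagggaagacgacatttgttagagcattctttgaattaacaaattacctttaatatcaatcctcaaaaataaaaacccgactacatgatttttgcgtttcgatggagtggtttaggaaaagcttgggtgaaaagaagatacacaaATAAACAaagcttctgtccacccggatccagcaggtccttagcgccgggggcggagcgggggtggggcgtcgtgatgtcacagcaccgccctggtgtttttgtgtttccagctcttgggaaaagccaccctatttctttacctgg
Sesn1: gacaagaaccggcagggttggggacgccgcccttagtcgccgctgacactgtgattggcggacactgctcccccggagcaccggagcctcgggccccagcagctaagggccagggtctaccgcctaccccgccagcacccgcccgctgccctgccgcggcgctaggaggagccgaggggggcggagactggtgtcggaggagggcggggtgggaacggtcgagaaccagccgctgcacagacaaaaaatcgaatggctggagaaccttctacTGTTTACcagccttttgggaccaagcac
The Trim63 window lies at chr4:134314870-134315169 (plus strand), with the match starting 194 bases before the start site. The Gabarapl1 window lies at chr6:129532942-129533241 (plus strand), with the match 95 bases before it. The Sesn1 window lies at chr10:41810324-41810623 (plus strand), with the match from base 22 after it, and the other Sesn1 window had none. A match is a run of letters and not evidence of binding, and the windows without one say nothing of the factors.

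In WT hearts, 8 of the 10 genes fell between P1 and P7, led by Pik3ip1, where 14.7% of all 14812 tested genes were called lower. From P7 to P21 they parted: Sesn1, Fbxo32, Foxo4 and Gabarapl1 rose, while Ccng2, Foxo1 and Trim63 fell on the TPM scale, a direction that turned for Trim63 and Foxo1 after other scalings. The cKO left none of them detectably changed at P7. At P21, Gabarapl1, Trim63 and Cited2 were higher in cKO hearts than in WT hearts and none was lower, in a comparison where 19.5% of all genes were called higher. Of these, only Gabarapl1 also passed after median-ratio scaling, where 4.11% of all genes were called higher, and with plain-number titles.

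**Figure D1:**
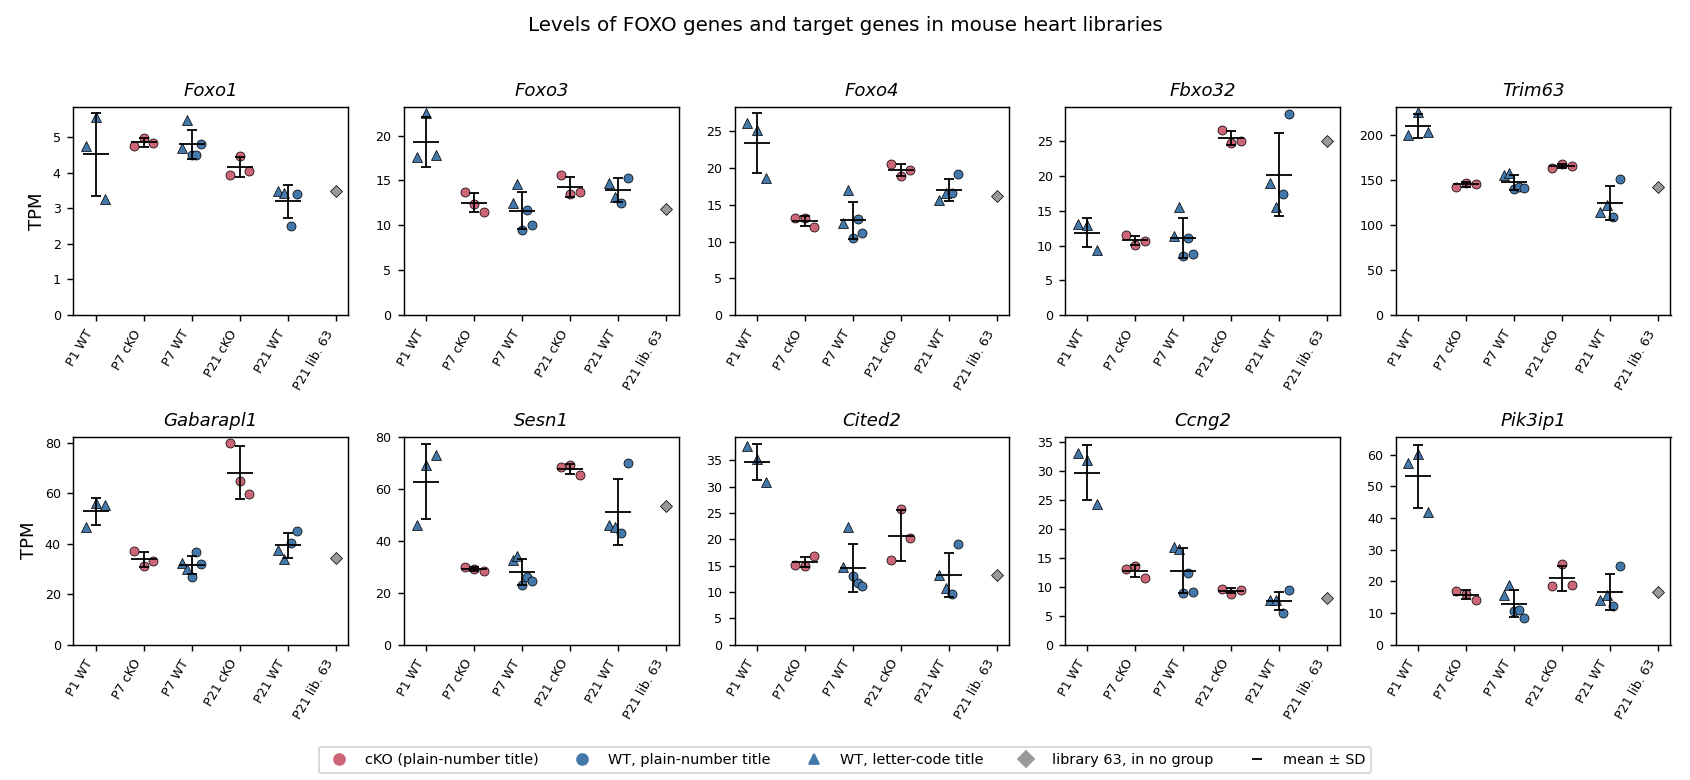
Level of each gene in TPM (y axis, from 0) in every library, by group (x axis); symbols are libraries and bars the mean ± SD of the group, with library 63, in no group, at the right. P1 WT libraries lie above all P7 libraries for 8 of the 10 genes, and P21 cKO libraries lie above all P21 WT libraries for Foxo1, Trim63 and Gabarapl1.

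The factors themselves differed in level. Foxo4 (ENSMUSG00000042903; mm10, chromosome X, 101254528 to 101260873) and Foxo3 (ENSMUSG00000048756; chromosome 10, 42181841 to 42276755) were the more abundant, and Foxo1 (ENSMUSG00000044167; chromosome 3, 52268336 to 52353221) the least, below 6 TPM in each library. Foxo6, the other family member, had group means of 1.05 to 2.01 TPM and passed no test.

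Foxo3, the factor best known for inducing Fbxo32 in muscle, was at 17.6, 22.5 and 17.8 TPM in P1 WT hearts. At P7 it was at 13.7, 12.4 and 11.5 TPM in cKO, against 12.5, 14.6, 9.45, 11.7 and 10.1 TPM in WT. At P21 it was at 15.6, 13.5 and 13.7 TPM in cKO, against 14.8, 13.2, 12.5 and 15.3 TPM in WT. Each P1 library lay above every later WT library, and cKO and WT overlapped at both ages. Foxo3 fell by 0.57 ± 0.13 on the log2 scale (SE) from P1 to P7 in WT (limma adjusted p = 0.00415). Its P21 knockout effect was 0.13 ± 0.13 (limma adjusted p = 0.463), and it was -0.11 after median-ratio scaling.

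Foxo4 had the same early fall and then a rise. It was at 26.2, 25.2 and 18.7 TPM in P1 WT hearts. The P7 levels were 13.2, 13.2 and 12.0 TPM in cKO, against 12.6, 17.0, 10.4, 13.1 and 11.2 TPM in WT. The P21 levels were 20.6, 18.9 and 19.8 TPM in cKO, against 15.7, 16.6, 16.6 and 19.3 TPM in WT, so that the highest WT library, P21 WT 60, lay inside the cKO range. Foxo4 fell by 0.75 ± 0.15 from P1 to P7 in WT (limma adjusted p = 0.00162) and rose by 0.38 ± 0.12 from P7 to P21 (limma adjusted p = 0.00939). The late rise was 0.28 without P21 WT 60 (limma adjusted p = 0.0537). In cKO hearts it rose by 0.59 ± 0.14 (limma adjusted p = 0.00326), with all P21 libraries above all P7 libraries.

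Foxo1, a factor with a known role in endothelial cells as well as in muscle, showed neither course. It was at 4.75, 5.56 and 3.26 TPM in P1 WT hearts. In P7 hearts the level was 4.75, 4.99 and 4.83 TPM in cKO, against 4.71, 5.48, 4.50, 4.50 and 4.81 TPM in WT. In P21 hearts the level was 3.95, 4.47 and 4.06 TPM in cKO, against 3.48, 3.42, 2.51 and 3.40 TPM in WT. All P21 WT libraries lay below all P7 WT libraries (log2 change -0.48 ± 0.11, limma adjusted p = 9.30e-04), but the median gene moved by as much, and the change was -0.02 after median-ratio scaling and 0.06 after quantile normalization. At P21 each cKO library lay above each WT library, with a log2 change of 0.38 ± 0.14 that missed the threshold (limma adjusted p = 0.0592) and was 0.18 after median-ratio scaling (limma adjusted p = 0.335).

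Of the ubiquitin ligase genes of muscle wasting, Trim63 fell from P1 to P7 in WT hearts and Fbxo32 rose from P7 to P21, while their P21 knockout effects were of similar size. Fbxo32, which encodes atrogin-1 (ENSMUSG00000022358; chromosome 15, 58175879 to 58214932), was at 13.1, 12.98 and 9.41 TPM in P1 WT hearts. By P7 it stood at 11.5, 10.1 and 10.7 TPM in cKO, against 11.4, 15.6, 8.43, 11.1 and 8.73 TPM in WT. By P21 it stood at 26.6, 24.8 and 25.1 TPM in cKO, against 19.0, 15.6, 17.4 and 28.9 TPM in WT. P7 and P1 did not differ beyond their spread in WT hearts (log2 change -0.06 ± 0.22, 95% interval -0.52 to 0.41), and P21 was higher. Between P7 and P21 Fbxo32 rose by 1.17 ± 0.21 in cKO hearts (limma adjusted p = 3.33e-04) and by 0.80 ± 0.18 in WT hearts (limma adjusted p = 7.28e-04). At P21 the highest library of all was P21 WT 60, and the knockout effect of 0.40 ± 0.22 did not pass (limma adjusted p = 0.185). It was 0.73 without that library (limma adjusted p = 0.00828), but 0.16 after median-ratio scaling (limma adjusted p = 0.655) and 0.17 with plain-number titles (limma adjusted p = 0.531).

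Trim63, which encodes MuRF1 (ENSMUSG00000028834; chromosome 4, 134315120 to 134329629), was the most abundant of the 10 genes. It was at 201, 225 and 204 TPM in P1 WT hearts. P7 hearts held 143, 147 and 146 TPM in cKO, against 156, 158, 140, 143 and 141 TPM in WT. P21 hearts held 164, 168 and 166 TPM in cKO, against 115, 122, 109 and 151 TPM in WT. The cKO libraries at P21 thus lay close together and above every P21 WT library, while P7 cKO libraries lay within the P7 WT range. The knockout effect was 0.44 ± 0.10 at P21 (limma adjusted p = 0.00688), 0.22 above the median gene, and -0.01 ± 0.09 at P7 (95% interval -0.20 to 0.18). It was 0.18 after median-ratio scaling (limma adjusted p = 0.122), and among libraries with plain-number titles it was 0.36 (limma adjusted p = 0.052).

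With age, Trim63 fell by 0.49 ± 0.10 from P1 to P7 in WT hearts (limma adjusted p = 0.00162). Its WT log2 change between P7 and P21 was -0.26 ± 0.08 (limma adjusted p = 0.00803), less than that of the median gene, and it turned to 0.32 after median-ratio scaling and 0.15 after quantile normalization. In cKO hearts the same step was 0.19 ± 0.10 (limma adjusted p = 0.109), with all P21 libraries above all P7 libraries.

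The other muscle RING finger genes, Trim54 (MuRF3) and Trim55 (MuRF2), did not pass at P21 between cKO and WT. Trim54 averaged 67.8 ± 10.3 TPM in P21 cKO hearts (SD, n = 3) and 65.1 ± 8.28 TPM in P21 WT hearts (n = 4); the log2 change was -0.12 ± 0.25 (limma adjusted p = 0.757). Trim55 averaged 56.5 ± 1.23 TPM in P21 cKO and 55.6 ± 3.75 TPM in P21 WT; the log2 change was 0.04 ± 0.16 (limma adjusted p = 0.889). With age they moved apart. In WT hearts Trim54 rose by 1.98 ± 0.20 from P7 to P21 and Trim55 fell by 1.33 ± 0.13 (limma adjusted p = 3.38e-07 and 2.30e-07), where the median gene moved by -0.47.

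Gabarapl1, which encodes an ATG8-family protein of the autophagosome membrane (ENSMUSG00000030161; chromosome 6, 129533160 to 129542346), had the knockout effect with the smallest p of the 10. It was at 46.7, 56.3 and 55.5 TPM in P1 WT hearts. At P7 it was at 37.1, 31.1 and 33.2 TPM in cKO, against 32.2, 29.8, 26.9, 36.7 and 32.1 TPM in WT. At P21 it was at 79.9, 65.0 and 59.8 TPM in cKO, against 37.6, 33.8, 40.5 and 45.2 TPM in WT. At P21 each cKO library was above each WT library, and above each P1 library too. The knockout effect was 0.71 ± 0.13 at P21 (limma adjusted p = 0.00225), 0.49 above the median gene, and 0.05 ± 0.12 at P7 (95% interval -0.21 to 0.30). The P21 effect also passed after median-ratio scaling (0.46, limma adjusted p = 0.0392) and among libraries with plain-number titles (0.65, limma adjusted p = 0.0248), and it passed without any 1 library (0.59 to 0.80).

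With age, Gabarapl1 fell by 0.81 ± 0.13 from P1 to P7 in WT hearts (limma adjusted p = 3.43e-04). Between P7 and P21 it rose by 0.98 ± 0.13 in cKO hearts (limma adjusted p = 1.35e-05) and by 0.32 ± 0.10 in WT hearts (limma adjusted p = 0.0113). Without P21 WT 60 the WT step was 0.26 (limma adjusted p = 0.052). Its relative Gabarap was more abundant and moved less: it averaged 185 ± 5.17 TPM in P21 cKO (SD, n = 3) and 144 ± 9.11 TPM in P21 WT (n = 4); the log2 change was 0.31 ± 0.06 (limma adjusted p = 0.00375).

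Sesn1 encodes sestrin 1, a stress-induced inhibitor of the growth kinase complex mTORC1 (ENSMUSG00000038332; chromosome 10, 41809935 to 41908424). It was at 46.2, 69.1 and 73.3 TPM in P1 WT hearts. The P7 levels were 29.8, 29.3 and 28.3 TPM in cKO, against 32.7, 34.0, 23.0, 26.2 and 24.4 TPM in WT. The P21 levels were 68.6, 69.1 and 65.4 TPM in cKO, against 46.0, 45.4, 42.9 and 70.1 TPM in WT. All P7 libraries were low, and at P21 the WT library 60 lay above the cKO libraries, far from the other 3. Sesn1 fell by 1.05 ± 0.19 from P1 to P7 in WT (limma adjusted p = 9.86e-04). From P7 to P21 it rose by 1.19 ± 0.19 in cKO (limma adjusted p = 1.08e-04) and by 0.82 ± 0.16 in WT (limma adjusted p = 2.23e-04).

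The knockout effect on Sesn1 at P21 was 0.49 ± 0.19 and did not pass (limma adjusted p = 0.0819); without P21 WT 60 it was 0.79 (limma adjusted p = 0.00234). It was 0.23 after median-ratio scaling (limma adjusted p = 0.462) and 0.30 with plain-number titles (limma adjusted p = 0.224). The paralogs Sesn2 and Sesn3 were low. Sesn2 averaged 1.15 ± 0.11 TPM in P21 cKO and 1.19 ± 0.29 TPM in P21 WT (log2 change 0.07, limma adjusted p = 0.697). In WT hearts Sesn2 fell by 0.79 ± 0.10 from P7 to P21 (limma adjusted p = 4.36e-06), where Sesn1 rose and the median gene moved by -0.47.

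Pik3ip1 encodes a membrane protein that inhibits PI3K, at the head of the pathway that restrains FOXO (ENSMUSG00000034614; chromosome 11, 3330401 to 3342971). It was at 57.2, 60.3 and 41.9 TPM in P1 WT hearts. In P7 hearts the level was 16.9, 16.1 and 14.2 TPM in cKO, against 15.7, 18.7, 10.5, 10.8 and 8.36 TPM in WT. In P21 hearts the level was 18.4, 25.6 and 18.7 TPM in cKO, against 13.98, 15.5, 12.0 and 24.9 TPM in WT. The fall after P1 was the steepest of the set, with no overlap: -1.82 ± 0.26 on the log2 scale, from the model (limma adjusted p = 1.47e-04). At both later ages cKO and WT overlapped. The knockout effect was 0.45 ± 0.24 at P7 (limma adjusted p = 1) and 0.50 ± 0.26 at P21 (limma adjusted p = 0.168). Without P21 WT 60 the P21 effect was 0.94 (limma adjusted p = 0.00311), whereas it was 0.26 after median-ratio scaling (limma adjusted p = 0.524) and 0.24 with plain-number titles (limma adjusted p = 0.541).

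Cited2, which encodes a coactivator-binding protein that limits hypoxia signalling (ENSMUSG00000039910; chromosome 10, 17723218 to 17725674), had a course much like that of Pik3ip1. It was at 37.8, 35.2 and 31.0 TPM in P1 WT hearts. By P7 it stood at 15.1, 15.0 and 16.8 TPM in cKO, against 14.7, 22.3, 13.04, 11.8 and 11.03 TPM in WT. By P21 it stood at 16.1, 25.7 and 20.3 TPM in cKO, against 13.3, 10.8, 9.61 and 19.1 TPM in WT. Cited2 fell by 1.09 ± 0.24 from P1 to P7 in WT (limma adjusted p = 0.00335). At P21 it was higher in cKO by 0.75 ± 0.24 (limma adjusted p = 0.0383), although P21 WT 60 lay above the lowest cKO library. The call held in 8 of 18 fits that each dropped 1 library (0.59 to 1.13 over the 18). It was lost after median-ratio scaling (0.51, limma adjusted p = 0.148) and among plain-number titles (0.55, limma adjusted p = 0.159). The paralogs did not pass at P21: the log2 change was 0.12 for Cited1 and 0.02 for Cited4 (limma adjusted p = 0.671 and 0.959).

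Ccng2, which encodes cyclin G2, an unusual cyclin linked to cell cycle arrest (ENSMUSG00000029385; chromosome 5, 93267257 to 93276231), fell at each step in WT hearts. It was at 33.0, 31.8 and 24.2 TPM in P1 WT hearts. P7 hearts held 13.02, 13.5 and 11.5 TPM in cKO, against 16.9, 16.5, 8.93, 12.3 and 9.07 TPM in WT. P21 hearts held 9.64, 8.76 and 9.42 TPM in cKO, against 7.65, 7.69, 5.42 and 9.34 TPM in WT. P7 WT libraries with letter codes lay above those with plain numbers. In WT hearts Ccng2 fell by 0.94 ± 0.19 from P1 to P7 (limma adjusted p = 0.00161) and by 0.70 ± 0.15 from P7 to P21 (limma adjusted p = 5.80e-04). After median-ratio scaling the later log2 change was -0.18 and did not pass (limma adjusted p = 0.216).

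At P21 the knockout effect on Ccng2 was 0.50 ± 0.19 and missed the threshold (limma adjusted p = 0.0668). Without P21 WT 60 it was 0.79 (limma adjusted p = 0.00209), whereas it was 0.27 after median-ratio scaling (limma adjusted p = 0.285) and 0.25 after quantile normalization (limma adjusted p = 0.346). Ccng1, which encodes cyclin G1, a p53 target, had changes of the opposite sign in both comparisons. It averaged 149 ± 5.74 TPM in P21 cKO hearts (SD, n = 3) and 214 ± 9.08 TPM in P21 WT hearts (n = 4); the log2 change was -0.50 ± 0.07 (limma adjusted p = 3.40e-04). In the WT step from P7 to P21 it rose by 0.66 ± 0.06 (limma adjusted p = 4.52e-08).

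Taking the 10 genes as a set, from P1 to P7 in WT hearts limma called 8 lower and 0 higher, where 14.7% of all tested genes were called lower and 13.8% higher. The same 8 had no overlap between the ages, against 17.1% of all genes. Their median log2 change was -0.78 and that of all genes -0.001. Foxo1 and Fbxo32 were the exceptions. Among letter-code libraries alone, the style of all P1 libraries, 7 of the 8 passed and Foxo3 did not (-0.48, limma adjusted p = 0.0544). In that fit 1128 of all 13882 tested genes were called lower. Its libraries still differ in letter code, H at P1 and heart at P7.

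From P7 to P21 in WT hearts limma called 4 of the 10 higher and 3 lower. Of all genes 8.1% were called higher and 64.4% lower, since the median gene moved by -0.47 on the TPM scale. After median-ratio scaling, which sets that median near 0, 50.7% of all called genes were higher, against 11.2% on the TPM scale. With that scaling 7 of the 10 genes were called higher, where 27.6% of all genes were, and 0 lower. Relative to the median gene Sesn1 lay 1.29 above, Fbxo32 1.27, Foxo4 0.85, Gabarapl1 0.79 and Pik3ip1 0.79. Only Sesn1 was without overlap on the higher side and only Foxo1 on the lower, against 6.13% and 54.1% of all genes. Fits held to 1 title style had fewer libraries. Among letter-code titles 0 of the 10 passed as higher, where 638 of all 13882 tested genes did. Among plain-number titles 6 of the 10 passed as higher, where 1027 of 14210 genes did. Without the style term the same 4 passed as with it, where 1176 of 14812 genes did.

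In cKO hearts the step from P7 to P21 gave 4 genes called higher (Sesn1, Fbxo32, Gabarapl1 and Foxo4) and 0 lower, where 9.36% of all genes were called higher and 39% lower. Without overlap, 6 of the 10 were higher and 2 (Foxo1 and Ccng2) lower, against 12.7% and 47.8% of all genes. The median gene moved by -0.24, and 19.3% of all called genes were higher, against 51.1% after median-ratio scaling. With that scaling 8 of the 10 were called higher, where 20.4% of all genes were.

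**Figure D2:**
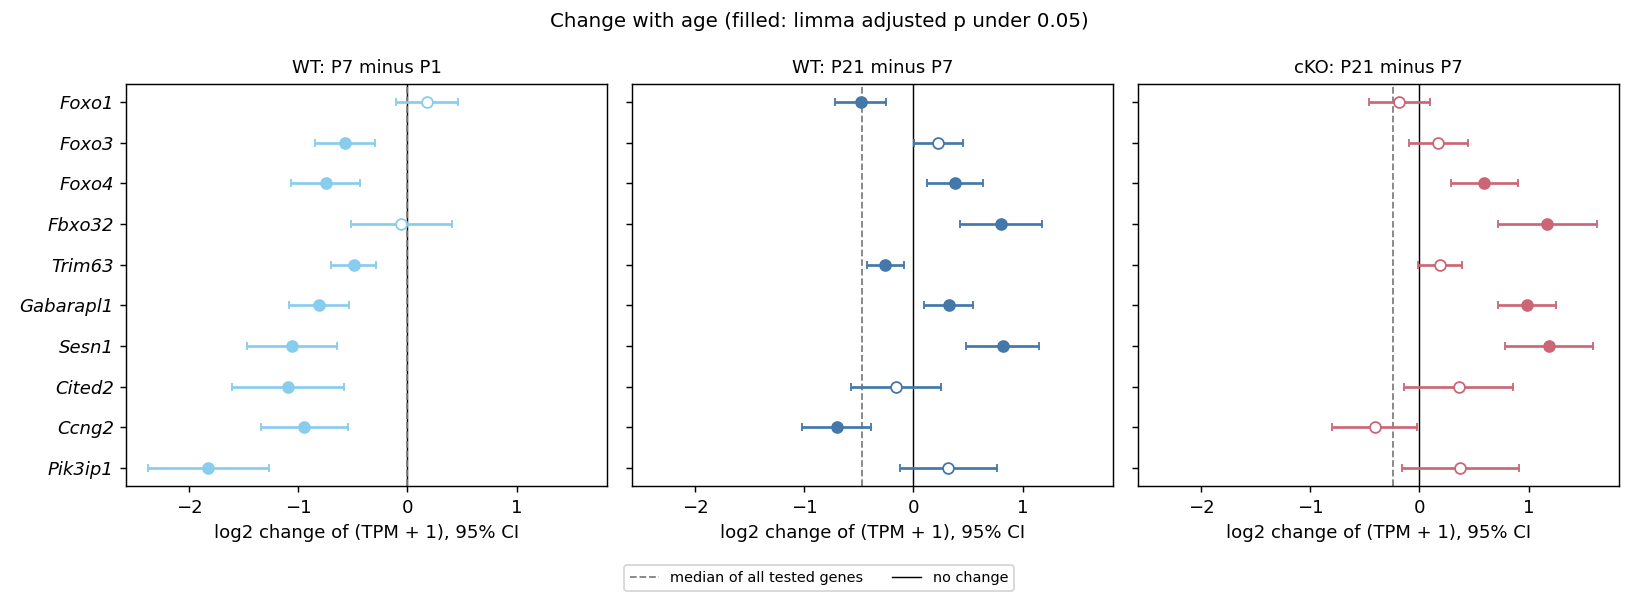
Log2 change of TPM + 1 with age (x axis, with 95% interval) for each gene (y axis), in WT hearts from P1 to P7 and from P7 to P21 and in cKO hearts from P7 to P21; filled points passed limma at an adjusted p under 0.05. In the left panel 8 genes are filled and lie below 0; in the middle and right panels 8 and 9 genes lie to the right of the dashed line, the median of all tested genes.

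At P7 limma called 0 of the 10 genes between cKO and WT, where 0.0203% of all genes (3) were called, and 0 of the 10 had an unadjusted p under 0.05. Log2 changes ran from -0.01 for Trim63 to 0.45 for Pik3ip1, with a median of 0.10 over the 10 genes and -0.02 over all genes. For each of the 10 the cKO and WT libraries overlapped. The 95% intervals reached 0.18 for Trim63, 0.30 for Gabarapl1 and 0.96 for Pik3ip1, so a change of the size seen for Gabarapl1 at P21 lay outside its interval at P7.

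At P21 all 10 log2 changes were above 0, with a median of 0.46 over the 10 genes and 0.22 over all genes, and limma called 3 higher and 0 lower. Of all genes 19.5% were called higher and 1.77% lower, so 3 of 10 is not far from that share. In 3 of the 10 (Foxo1, Trim63 and Gabarapl1) every cKO library lay above every WT library, against 28.5% of all genes. After median-ratio scaling the 9 genes other than Foxo3 were still above 0, and 1 of the 10 (Gabarapl1) was called higher, where 4.11% of all genes were. On that scaling 43.5% of all called genes were higher, against 91.7% on the TPM scale.

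Leaving out P21 WT 60 moved the P21 count more than leaving out any other of the 18 libraries. Without it limma called 8 of the 10 genes higher, all but Foxo3 and Foxo4, where 32.6% of all genes were. The count was 5 without P1 WT 3, a library that enters only through the shared estimate of spread and the filter on low values. In that fit 3803 of all 14714 tested genes were called higher. Library 63, labelled cKO, had Gabarapl1 at 34.4 TPM, within the P21 WT range, Trim63 at 142 TPM, below each P21 cKO library and within the P21 WT range, and Fbxo32 at 25.1 TPM, within the ranges of both groups. Placed among the cKO libraries it left 1 of the 10 called higher (Trim63), where 808 of all 14848 tested genes were.

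**Figure D3:**
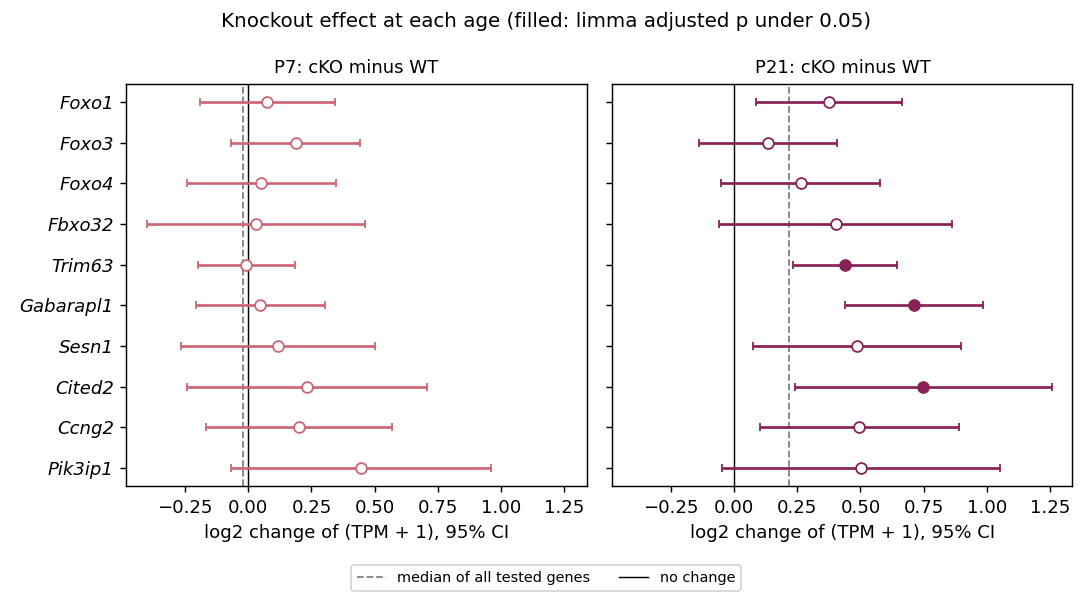
Log2 change of TPM + 1 between cKO and WT hearts (x axis, with 95% interval) for each gene (y axis) at P7 and P21; filled points passed limma at an adjusted p under 0.05. At P7 each interval includes 0; at P21 all points lie right of 0, and Gabarapl1, Trim63 and Cited2 are filled.

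The difference between the P21 and P7 knockout effects was tested in the same model. It was 0.66 ± 0.16 for Gabarapl1 (limma adjusted p = 0.0258) and 0.45 ± 0.12 for Trim63 (limma adjusted p = 0.041), and the other 8 did not pass. Cited2, called at P21 and not at P7, had a difference of 0.52 ± 0.30 (limma adjusted p = 0.26). Of all genes 7.04% were called with a more positive effect at P21, and the median gene differed by 0.24. After median-ratio scaling the difference was 0.39 for Gabarapl1 and 0.16 for Trim63 and neither passed (limma adjusted p = 0.259 and 0.385), and 40.7% of all called genes were higher there, against 93.1% on the TPM scale. Without P21 WT 60 limma called 6 of the 10, where 20.3% of all genes were, and without P7 WT 1, P21 WT 3, P7 cKO 75, P7 cKO 82 or P21 cKO 59 it called 0. Over the 18 fits that each dropped 1 library, Gabarapl1 passed in 13 and Trim63 in 5.

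Markers of other cell types moved at P21 as well, where 19.5% of all genes were called higher and the median gene moved by 0.22. Of 10 endothelial markers limma called 9 higher in cKO hearts, with a summed level of 602 to 644 TPM in cKO and 377 to 498 TPM in WT. Of 8 fibroblast markers 8 were higher (953 to 1192 TPM in cKO and 619 to 784 TPM in WT), and of 8 mural markers 5 (818 to 1102 TPM in cKO and 511 to 753 TPM in WT). Of 10 cardiomyocyte markers 1 was higher, Mybpc3, with sums of 63700 to 67170 TPM in cKO and 58580 to 64400 TPM in WT. Of 8 macrophage markers 0 were called (187 to 249 TPM in cKO and 201 to 296 TPM in WT), and none of these markers was at 0 in any library. Of 6 red cell markers 5 were tested and 0 called, and the 6 summed to 10700 to 20930 TPM in cKO and 6225 to 16190 TPM in WT. After median-ratio scaling limma called 1 of the endothelial, 5 of the fibroblast and 2 of the mural markers higher, where 4.11% of all genes were. The part of these shifts in the P21 results for Gabarapl1, Trim63 and Cited2 was not tested. In whole hearts, more or fewer cells of a type and more or less RNA per cell cannot be told apart. At P7 none of these markers was called between cKO and WT. Markers also moved with age in WT hearts: at P21, against P7, endothelial markers summed to 377 to 498 TPM against 781 to 945 TPM, and fibroblast markers to 619 to 784 TPM against 1282 to 1769 TPM. Macrophage markers summed to 201 to 296 TPM at P21 and 87.8 to 101.1 TPM at P7. At P7, against P1, endothelial markers summed to 781 to 945 TPM against 638 to 726 TPM. The part of these markers in the age results was not tested either.

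Skeletal muscle is a tissue in which Fbxo32 and Trim63 are abundant. Of its 8 markers 4 were abundant enough to test and 1 to 3 were at 0 in each library. At P21 Tnni2 and Ckm were lower in cKO hearts (log2 change -1.85 and -0.26, limma adjusted p = 9.67e-05 and 0.0427). Acta1 and Tnnt3 had log2 changes of 0.53 and 0.50 and did not pass (limma adjusted p = 0.218 and 0.0619), so the median of the 4 was 0.12. The part of skeletal muscle RNA in the results for Fbxo32 and Trim63 was not tested. Summed levels overlapped, at 1749 to 1964 TPM in P21 cKO and 1803 to 2089 TPM in P21 WT. Whether RNA of these markers came from skeletal muscle or from the heart itself was not tested, so the sums do not measure skeletal muscle RNA.

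Upstream of FOXO, transcripts of AKT genes were higher in P21 cKO hearts on the TPM scale. Among 30 regulators of FOXO, limma called 11 higher and 0 lower at P21, where 19.5% of all genes were called higher, with a median log2 change of 0.27 against 0.22 over all genes. They included Akt2 (0.43 ± 0.07, limma adjusted p = 0.00105) and Akt1 (0.37 ± 0.07, limma adjusted p = 0.00202), Xpo1 (0.63), the nuclear exporter that FOXO proteins use, and Ywhaq (0.48), an adaptor that binds phosphorylated FOXO. After median-ratio scaling these 4 stayed above 0 and only Xpo1 of the 30 was called higher (0.39, limma adjusted p = 0.00539), with 1 lower, Pdpk1. Akt1 averaged 106 ± 4.31 TPM in P21 cKO (SD, n = 3) and 77.04 ± 7.91 TPM in P21 WT (n = 4). In WT hearts Akt1 fell by 1.14 ± 0.05 from P7 to P21 (limma adjusted p = 8.29e-11), where the median gene moved by -0.47. Pdpk1 averaged 5.35 ± 0.34 TPM in P21 cKO and 6.86 ± 0.63 TPM in P21 WT, without overlap, and did not pass (log2 change -0.15 ± 0.12, limma adjusted p = 0.366), while after median-ratio scaling it did (-0.38, limma adjusted p = 0.016). Of 9 PI3K subunit genes tested, Pik3ca, for a catalytic subunit, was higher in P21 cKO (0.54 ± 0.14, limma adjusted p = 0.0152). Pik3r1, for the main regulatory subunit, was lower (-0.40 ± 0.11, limma adjusted p = 0.0218). After median-ratio scaling Pik3r1 still passed (-0.64, limma adjusted p = 0.00235) and Pik3ca did not (0.30, limma adjusted p = 0.135).

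Among 33 other genes described as FOXO targets, limma called 11 higher and 0 lower in P21 cKO hearts, against the same 19.5% of all genes, with a median log2 change of 0.36 against 0.22 over all genes. Insr, the insulin receptor gene, averaged 29.5 ± 1.61 TPM in P21 cKO (SD, n = 3) and 17.3 ± 3.28 TPM in P21 WT (n = 4); the log2 change was 0.77 ± 0.13 (limma adjusted p = 0.0013). Ccnd2 (0.92 ± 0.13), for cyclin D2, which FOXO factors are known to repress, was higher too, as were Nt5e (0.77) and Selenop (0.61). After median-ratio scaling 6 of the 33 were higher and 2 lower, and these 4 genes still passed (Ccnd2 at 0.68, Nt5e at 0.55, Insr at 0.53 and Selenop at 0.36). The list thus held genes that FOXO factors are known to raise and genes they are known to lower.

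Of 24 other genes of muscle wasting tested, limma called 4 higher in P21 cKO hearts and 0 lower, among them Eif4ebp1 (log2 change 0.75), which encodes an mTORC1-regulated inhibitor of translation, and Ctsl (0.45), for a lysosomal protease. That count is near the 19.5% of all genes called higher, and the median log2 change was 0.11 against 0.22 over all genes. After median-ratio scaling 0 were higher and 3 lower. From P1 to P7 in WT hearts 13 of the 24 were lower and 0 higher, where 14.7% of all genes were called lower, with a median of -0.25 against -0.001 over all genes, among them Klf15, a glucocorticoid-induced transcription factor (-2.23 ± 0.18), and the metallothionein genes Mt2 (-4.26 ± 0.37) and Mt1 (-1.75 ± 0.24). Klf15 went down and up like Sesn1. It averaged 25.8 ± 4.96 TPM at P1 (SD, n = 3), 5.63 ± 0.79 TPM at P7 (n = 5) and 16.1 ± 3.57 TPM at P21 (n = 4) in WT hearts.

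Of 20 further autophagy genes limma called 6 higher and 0 lower in P21 cKO hearts, where 19.5% of all genes were called higher, with a median log2 change of 0.25 against 0.22 over all genes. Besides Gabarap they included Wipi1 (0.40), Atg5 (0.31) and the mitophagy receptor gene Bnip3 (0.38). After median-ratio scaling 0 of the 20 were higher and 1 lower, and Gabarap had a log2 change of 0.05. From P1 to P7 in WT hearts 6 were lower and 0 higher, where 14.7% of all genes were called lower and 13.8% higher. The 6 included Bnip3 (-0.91 ± 0.12), Sqstm1 (-0.76 ± 0.10) and Map1lc3b (-0.59 ± 0.10). The median log2 change of the 20 was -0.20 against -0.001 over all genes. After median-ratio scaling 7 were lower and 1 higher, and after quantile normalization 8 were lower and 3 higher. At P7 limma called 0 genes of any of these lists between cKO and WT hearts.

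Likeness in course was described over the 18 libraries, which share groups and a TPM sum, as Pearson's r of log2(TPM + 1) among 9450 other genes (9451 for Foxo1) with a mean of at least 5 TPM. The nearest gene was Tgfbrap1 for Foxo1 (0.964), Mylip for Foxo3 (0.925) and Foxo4 (0.948), and Slc25a13 for Fbxo32 (0.939). It was Cdkn1c for Trim63 (0.94), P4htm for Gabarapl1 (0.938), Bcat2 for Sesn1 (0.937), Dhx40 for Ccng2 (0.972) and Rit1 for Pik3ip1 (0.939). For Cited2 the nearest of all these genes was another of the 10, Pik3ip1 (0.929), and after it came Mxi1 (0.909) and Trim63 (0.907). Within groups, after group means were taken out, Cited2 and Pik3ip1 still moved together (r = 0.87), as did Foxo4 and Fbxo32 (0.861), while Gabarapl1 and Cited2 did not (-0.11). Title style was not taken out, and its part in these r values was not tested.

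The deviations of single libraries from their group means were shared by several of the 10 genes. P21 WT 60 and P7 WT 3 were high for Fbxo32, Cited2 and Pik3ip1 at once, and P21 WT 57 and P7 WT 72 were low for most of the set. Gabarapl1 followed less: P7 WT 3 lay below the group mean for it. The 6 cKO libraries had median deviations of -0.03 to 0.04, against -0.24 to 0.35 in the 12 WT libraries. All cKO titles are of 1 style, whereas the P7 and P21 WT groups mix 2, and style was left in these deviations. P7 WT libraries had 0.075 and 0.355 with letter codes, and -0.236, -0.022 and -0.179 with plain numbers. P21 WT libraries had -0.05 and -0.057, against -0.197 and 0.295. The P1 WT libraries, of 1 style, had 0.102, 0.129 and -0.211. A difference in spread between cKO and WT was not tested.

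**Figure D4:**
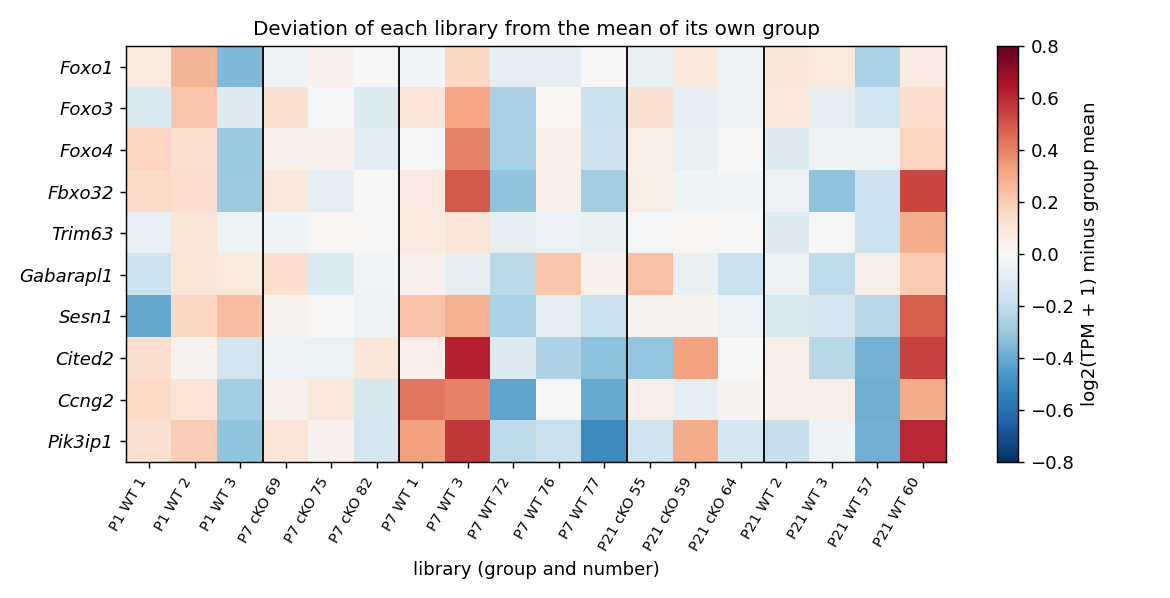
Deviation of each library (x axis, by group) from the mean of its own group in log2(TPM + 1), as colour, for each gene (y axis); red is above and blue below the group mean. P21 WT 60 is above its group mean for all 10 genes and P7 WT 3 for 9, and most cells of the cKO libraries are paler.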

How the data were processed

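The deposited table held 1 TPM value per gene and library, made by the authors. Per the submitters' processing notes, TopHat2 2.0.14, Cufflinks 2.2.1 and mm10 were used; the tool behind the TPM values and its annotation are not given in the sources used here. The kits were RNA iso Plus for extraction and SMARTer mRNA-Seq for libraries, per the labels' protocols. The table also held 2 columns of no sample, which were not used.

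All 18 grouped libraries were fitted together in limma 3.58.1 (R 4.3.3; lmFit, eBayes with trend) on log2(TPM + 1), with group and title style as terms, over the 14812 genes that reached 1 TPM in 3 or more libraries; all 10 genes passed this filter. This scale understates changes of low genes. Within each of 6 comparisons, Benjamini-Hochberg adjustment was applied, with a threshold of 0.05. Fold changes come from the model, so they differ from ratios of group means. The fit was also run on simulated data with independent noise and no style effect, shared library deviation or shift of the median gene. That run does not show how the fit handles these features. Positions of genes come from GENCODE M21 (mm10), and promoters from RefSeq.

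The 10 genes, the other lists and the naming rule were chosen with earlier results of these data known. The rule named the 10 genes, up to 4 passing genes per other list and comparison by smallest p, their relatives and regulators, and the 3 most like genes by course. Alternatives were other scalings, pseudocounts and filters, removal of mt- and haemoglobin genes, title style left out or held to 1 style, a replicate block, library 63 placed in a group, and each library left out. Of 171 pairs of libraries none had over 2.02% of genes with identical TPM. A result for 1 gene of the lists is not reported here.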

Additional observations from a re-analysis of the deposited data

Results flagged for a closer look

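At P21, Foxo1 in WT hearts was 2.51 TPM in library 57, against 3.40 to 3.48 TPM in the other 3, a gap larger than Dixon's 95% limit for 4 samples. Sesn1 was 70.1 TPM in WT library 60, against 42.9 to 46.0 TPM in the other 3, by the same test. Chance passes about 1 in 20 groups, and 20 groups were tested.

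The knockout effect differed between P21 and P7 for Gabarapl1 by 0.66 (limma adjusted p = 0.0258) and for Trim63 by 0.45 (limma adjusted p = 0.041). The effect was larger at P21 in each case. The call held in 19 of 29 other settings for Gabarapl1 and in 8 of 29 for Trim63. No cause was tested.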

How the results depend on the processing

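The 8 falls from P1 to P7 were called in each of 29 settings, except Foxo3 in 28, and 0 of the 10 genes were called at P7 in any setting. At P21, 3 genes were called higher in cKO; 1 was after median-ratio scaling, quantile normalization, with plain-number titles or with library 63 as cKO, and 2 to 8 with each library left out (5 without P1 WT 3, 8 without P21 WT 60). Gabarapl1 passed in 28 of 29 settings, Trim63 in 26 and Cited2 in 11. From P7 to P21 in WT, 4 were higher and 3 lower; median-ratio scaling gave 7 and 0, quantile normalization 0 lower, letter-code titles 0 higher and plain-number titles 1 lower, and leaving libraries out gave 2 to 5 higher (2 without P21 WT 60) and 2 to 4 lower. Trim63 reversed to 0.32 after median-ratio scaling and 0.15 after quantile normalization, and Foxo1 to 0.056 after the second. In cKO from P7 to P21, 4 were higher and 0 lower; both scalings gave 8 higher, library 63 as cKO gave 1 lower, and leaving libraries out gave 4 to 5 higher and 0 to 1 lower (1 without P21 WT 60). The larger effect at P21 was called for 2 genes; for 0 after either scaling, with no filter, with plain-number titles or with library 63 as cKO, for 1 without mt- and haemoglobin genes or with library 63 as WT, and for 0 to 6 with each library left out. The causes of these shifts were not tested. Over all genes, 3155 were called between cKO and WT at P21, 1400 after median-ratio scaling, 1250 after quantile normalization, 1535 with plain-number titles, 855 with library 63 as cKO and 1469 to 5055 with each library left out; for the larger effect at P21 these were 1120, 351, 312, 105, 0 and 357 to 3123, with 656 without mt- and haemoglobin genes and 621 with no filter. From P1 to P7 the count was 4217, and 2428 with letter-code titles. At P7 it was 3, and 0 to 9 in the alternatives. TPM keep no depth, so the counting error of low genes such as Foxo1 is unknown.

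Replicate numbers are shared among letter-code titles only. Deviations of same-numbered libraries from their group means had r of -0.10 to 0.07. At P7 and P21 there are 2 letter-code libraries each, whose deviations mirror each other. These values therefore cannot show whether same-numbered libraries share more than a number. With a replicate block 2 of the 10 genes were called at P21 and 1 for the larger effect at P21; other counts were as without it.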
